A study of Mus musculus with 12 samples.

Results

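Paneth cell genes were followed here across a cross of genotype and diet in mouse intestine. They were chosen by symbol. The rule took every gene whose symbol starts with Defa followed by a digit or a hyphen, and added Lyz1, Ang4, Mmp7, Itln1, Habp2 and Pnliprp2. It found 45 of the 47643 genes in the table. Of these, 22 were alpha-defensin genes (cryptdins), 17 were defensin pseudogenes and 6 were the other products.

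Paneth cells sit at the base of small intestinal crypts and release granules that carry antimicrobial proteins. Alpha-defensins are short cationic peptides with cysteine bridges, which damage bacterial membranes. In mice their precursors are cut into active peptides by matrilysin, the protease encoded by Mmp7, inside the granules before release. Lysozyme (Lyz1) cleaves bacterial cell walls, angiogenin 4 (Ang4) is a bactericidal ribonuclease, and intelectin 1 (Itln1) is a lectin that binds microbial sugars.

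The study measured bulk RNA of intestine from male C57BL/6 mice aged 7 to 8 weeks. WT stands for Pparafl/fl, mice with floxed but intact Ppara alleles, and KO for PparaΔIE, a notation used for loss of the gene in the intestinal epithelium. Ppara encodes a nuclear receptor for fatty acids. Each genotype received chow or a diet labelled 60% HFD (high-fat diet) for 10 days, giving WT chow, KO chow, WT HFD and KO HFD with 3 libraries each. The labels name no recombinase line and no segment of the intestine, and do not say that the libraries are separate mice. Each p-value thus rests on how far these libraries scatter, and part or all of that scatter may be technical.

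Library totals ran from 33621040 to 53959405 expected counts, and levels are given as CPM, counts per 1000000 of a library total scaled by TMM factors. Ppara itself stood at 18.1 to 22.0 CPM in WT chow, 8.42 to 15.6 in KO chow, 33.7 to 39.3 in WT HFD and 11.1 to 17.3 in KO HFD, so each KO library lay under each WT library of its diet (averaged over diets, log2 fold change -1.07, edgeR adjusted p = 0.013). The difference passed on HFD alone (-1.46, edgeR adjusted p = 0.031) and did not pass on chow alone (-0.68, edgeR adjusted p = 0.25). The WT chow libraries were close to one another. Their biological coefficient of variation (edgeR, 1 value over all genes tested) was 0.0583, against 0.1512 in KO chow, 0.1457 in WT HFD and 0.1396 in KO HFD. All groups share 1 estimate of spread for each gene, so the tests between genotypes on HFD also draw on the WT chow libraries. Across 143 immunoglobulin V genes, libraries of WT chow correlated at 0.882 to 0.949, against 0.496 to 0.813 for libraries of different groups. In KO chow the range was 0.67 to 0.872, with library 3 close to both of the others. These correlations are across genes and carry no test. Results are also given without WT chow 1 and KO chow 3, called the in-between libraries here, each of which correlated best with both others of its group. Of 5 colon markers 2 passed the filter on low counts, while Aqp8, Hoxd13 and Hoxb13 reached at most 0.0249, 0.0248 and 0.0746 CPM in any library.

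The alpha-defensin genes lie in a cluster on chromosome 8 (mm10) and are so alike that reads are hard to assign. RSEM, the program that made the counts, divides such reads among the copies by estimation. Aligned GENCODE transcripts, joined wherever identity reached 90%, fell into 4 groups, each named here after a gene with a high level. The Defa20 group held 6 genes (Defa2, Defa20, Defa21, Defa22, Defa32 and Defa33). The Defa24 group held 10 (Defa3, Defa17, Defa23, Defa24, Defa25, Defa26, Defa27, Defa28, Defa30 and Defa31). The Defa37 group held 5 (Defa5, Defa34, Defa35, Defa36 and Defa37), and Defa29 stood alone. Identity was 98.1% to 100% within the Defa37 group and 83.5% to 86.6% between the Defa20 and Defa37 groups. Defa29 reached at most 71.4% with any other gene of the rule.

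The end of the coding sequence shows why sums are needed and where the groups part. The lines give the last coding bases before the stop codon from GENCODE vM21 (mm10, plus strand, 5′ to 3′). Capitals mark bases that do not match Defa24 in an alignment of the whole coding sequences.
Defa24 (chr8:21735285-21735374): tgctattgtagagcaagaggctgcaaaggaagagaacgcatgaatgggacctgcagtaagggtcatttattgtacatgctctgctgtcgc
Defa30 (chr8:21135411-21135500): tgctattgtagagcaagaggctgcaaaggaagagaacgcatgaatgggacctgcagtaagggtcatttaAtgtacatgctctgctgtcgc
Defa23 (chr8:21055829-21055918): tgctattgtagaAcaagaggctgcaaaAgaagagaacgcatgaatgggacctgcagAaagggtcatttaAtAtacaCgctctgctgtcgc
Defa37 (chr8:21566164-21566253): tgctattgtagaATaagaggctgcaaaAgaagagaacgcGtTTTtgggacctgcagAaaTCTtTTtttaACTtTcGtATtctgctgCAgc
Defa22 (chr8:21163063-21163152): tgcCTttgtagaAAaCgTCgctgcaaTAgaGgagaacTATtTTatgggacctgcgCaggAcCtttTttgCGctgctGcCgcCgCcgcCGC
Defa20 (chr8:21510045-21510140): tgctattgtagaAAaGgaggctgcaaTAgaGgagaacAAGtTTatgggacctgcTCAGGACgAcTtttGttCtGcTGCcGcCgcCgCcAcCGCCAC
Defa30 differed from Defa24 at 1 base of these 90 and Defa23 at 6, while Defa37 differed at 22 and Defa22 at 28. Defa20 is longer here, with 37 of 96 bases not matching. The Defa20 stretch is the same in Defa2, Defa32 and Defa33, and the Defa37 stretch is the same in Defa5, Defa34, Defa35 and Defa36. No read within these stretches can tell such genes apart.

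Promoters were available from RefSeq (GRCm38.p6) for 18 of the 45 members, namely 12 defensins and the 6 other products. Each window runs from 250 bases before to 50 bases after a gene's start. A pair of motifs was searched on both strands, and they do not overlap. CTTTGAT is a core match for TCF/LEF factors, which act in the Wnt pathway that is active in Paneth cells. It was found in all 12 defensin promoters and in that of Mmp7, or 13 of 18 members, against 3.73% of all 32851 promoters. AGGNCANAGGNCA, a direct repeat of AGGNCA spaced by 1 base, of the kind PPAR and RXR bind, was found in 0 of 18 members and in 0.381% of all promoters (125 of 32851). With so low a share over all promoters, 0 of 18 cannot show that the members have fewer such repeats than other genes. The defensin promoters are near copies of one another, so their matches are not independent. A match is a description of these letters and not evidence of binding. The lines show the stretch around the matches on the gene's strand, with the match (in reverse as ATCAAAG) in capitals.
Defa22 (chr8:21162145-21162231): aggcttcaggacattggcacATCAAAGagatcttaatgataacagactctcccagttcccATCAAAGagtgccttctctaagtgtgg
Defa20 (chr8:21509126-21509212): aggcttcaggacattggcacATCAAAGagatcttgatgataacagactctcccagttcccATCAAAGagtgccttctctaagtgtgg
Defa23 (chr8:21054906-21054992): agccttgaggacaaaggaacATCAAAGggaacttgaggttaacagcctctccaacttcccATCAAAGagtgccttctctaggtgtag
Defa37 (chr8:21565239-21565285): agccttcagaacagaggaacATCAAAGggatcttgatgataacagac
Defa22 and Defa20, of the same group, carry the matches at 112 and 72 bases before their starts. Defa23 carries them at 114 and 74 bases, and Defa37 has a single match at 127 bases.

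The 22 defensins took 0.25% to 0.535% of all counts in a library, and the 45 genes together 0.41% to 0.816%. Per kilobase of exon, Defa24 and Defa20 had the highest mean levels of the defensins over all libraries, at 1332 and 1212 CPM per kb. Lyz1 stood at 1021 CPM per kb, Itln1 at 370, Ang4 at 70.3, Mmp7 at 47.3, Pnliprp2 at 11.9 and Habp2 at 2.57. Lyz2, the myeloid near copy of Lyz1, had 29.1 to 71.9 CPM, against 920 to 1860 CPM for Lyz1. Of the 45 genes, 25 passed the filter on low counts and were tested. Another 12 had counts too low or too scattered to pass, and 8 had no count in any library (Defa25 and 7 pseudogenes). Some copies had values in few libraries. Defa2 was listed at 36.4 CPM in KO chow 1 and at 9.11 in WT HFD 3, and at no more than 0.199 in the other 10 libraries. Defa31 ranged from 0 to 9.74 CPM and Defa36 from 0 to 5.53. Such genes are therefore read only within their group's sum. The 17 pseudogenes together came to 0.764 to 1.88 CPM.

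The other products lie on other chromosomes (mm10). Lyz1 is at chr10:117287797-117292868, Mmp7 at chr9:7692090-7699585, Itln1 at chr1:171518122-171535294 and Ang4 at chr14:51763878-51773590. Pnliprp2 (chr19:58759719-58777534) and Habp2 (chr19:56287137-56320822) share chromosome 19. Of the defensins named most often here, Defa20 lies at chr8:21509258-21510237, Defa22 at chr8:21162277-21163249, Defa24 at chr8:21734494-21735471, Defa32 at chr8:21529032-21530012 and Defa37 at chr8:21565386-21566349.

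On HFD, lysozyme and the Defa20 group of defensins were lower in KO than in WT, while the sums over the other groups pointed the same way and did not pass the test. The sum over the Defa20 group was 2628.7, 2400.1 and 2068.5 CPM in the WT HFD libraries and 1329.7, 1183.8 and 1732.6 CPM in KO HFD. Each KO library lay below each WT library. The group fell 1.67-fold (log2 fold change -0.74, SE 0.14, edgeR adjusted p = 0.039). The Defa24 group gave 1872.8, 1622.0 and 1215.0 CPM in WT HFD against 1068.9, 984 and 1106.5 in KO HFD. Its groups did not overlap either, but the difference of -0.58 (SE 0.14) missed the threshold (adjusted p = 0.11). The Defa37 group gave 461, 411 and 296 CPM against 284, 285 and 271, again without overlap, and its -0.48 (SE 0.14) did not pass (adjusted p = 0.19). Summed over all 22 defensins, the levels were 5035.7, 4504.2 and 3622.7 CPM in WT HFD and 2724.6, 2500.1 and 3146.8 CPM in KO HFD. This difference of -0.65 (SE 0.13) missed the threshold (adjusted p = 0.058), and passed it without WT HFD 3 (adjusted p = 0.015) or without KO HFD 3 (adjusted p = 0.026). In bulk RNA, fewer Paneth cells and less RNA per Paneth cell cannot be told apart.

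**Figure D1:**
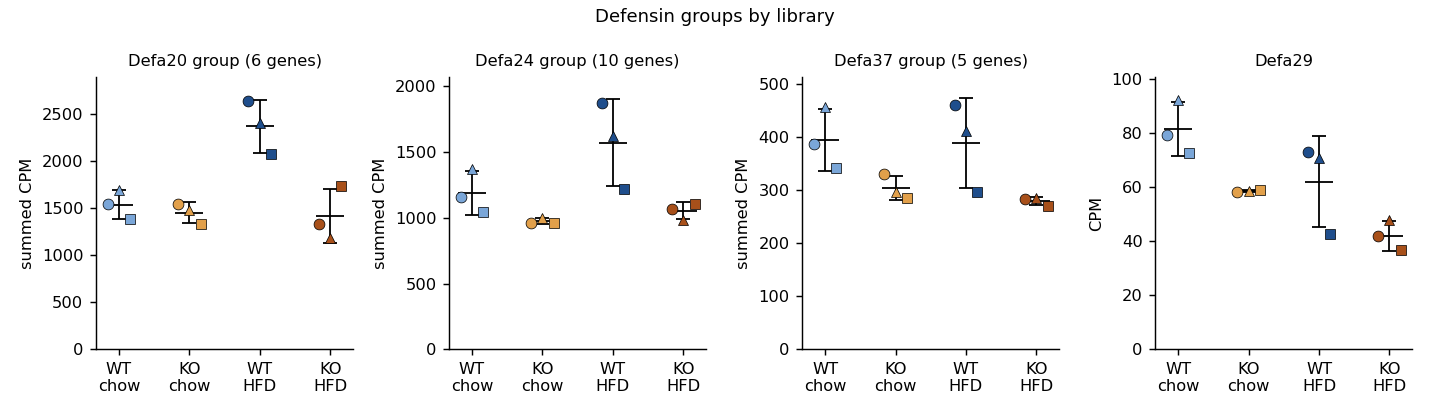
Summed CPM per library (y axis) of the 3 defensin groups and CPM of Defa29 in the 4 groups of 3 libraries (x axis). Circles, triangles and squares are replicates 1, 2 and 3, which the labels do not pair between groups, and the bars give the mean and SD. In the Defa20 panel the 3 WT HFD libraries (2068.5 to 2628.7) stand above all others, while the Defa37 panel shows WT HFD at 296 to 461, beside WT chow at 341 to 456.

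Of the 25 tested members, 4 fell in KO on HFD and 0 rose, beside 0.187% of all 17602 genes tested that fell. Lyz1 had 1859.7, 1722.9 and 1281.2 CPM in WT HFD and 920, 1092.9 and 944 CPM in KO HFD. All KO values lay below all WT values, and Lyz1 fell 1.64-fold (log2 fold change -0.72, SE 0.13, edgeR adjusted p = 0.031). The other 3 were defensins of the Defa20 group. Defa32 was at 413, 382 and 332 CPM in WT HFD and at 192, 178 and 246 in KO HFD, a 1.83-fold fall (-0.87, SE 0.12, edgeR adjusted p = 0.016). Defa22 was at 528, 449 and 341 CPM against 257, 252 and 286 (-0.73, SE 0.13, adjusted p = 0.033). Defa21 was at 486, 418 and 292 CPM against 241, 232 and 248 (-0.73, SE 0.14, adjusted p = 0.046). Defa20 itself, at 806, 731 and 674 CPM against 405, 330 and 565, did not pass (-0.77, adjusted p = 0.083), nor did Defa24 (-0.62, adjusted p = 0.067). The 3 that fell are near copies, so they do not count as separate findings. The median log2 fold change of the 25 was -0.56, beside -0.001 over all genes tested, and 17 of the 25 had WT and KO libraries that did not overlap with KO lower, beside 8.7% of all genes (none had KO higher, beside 9.27%). Near copies make up most of these 17.

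The 5 products other than Lyz1 did not pass on HFD. Itln1 stood at 633, 588 and 443 CPM in WT HFD and at 413, 385 and 410 in KO HFD (log2 fold change -0.46, SE 0.11, edgeR adjusted p = 0.11). The libraries did not overlap, but WT HFD 3 came close to KO. Ang4 had 68.5, 64.2 and 47.6 CPM against 48, 44.3 and 48.2, so that WT HFD 3 lay inside the KO range (-0.36, SE 0.10, adjusted p = 0.18). For Pnliprp2, which encodes a lipase of the pancreatic lipase family, the values were 27.4, 27.2 and 23.0 CPM against 21.2, 17.6 and 20.7 (-0.38, SE 0.14, adjusted p = 0.27). Mmp7 differed by -0.09 (SE 0.12, adjusted p = 0.80), with 39.3 to 50.4 CPM in WT HFD and 37.3 to 48.4 in KO HFD, ranges that overlapped almost wholly. Habp2, a hyaluronan-binding serine protease, differed by -0.21 (SE 0.11, adjusted p = 0.44).

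The HFD calls depended on single libraries, among all genes as among the members. Over the 12 fits that left out 1 library, Defa32 was called in 9, Lyz1, Defa22 and the Defa20 group in 4 each, and Defa21 in 1. With the edgeR test, 15 members were called without WT HFD 3, the lowest WT library for most of these genes, and 0 without WT HFD 2, KO HFD 1 or KO HFD 2 (18 to 20 at an unadjusted p under 0.05). Of all genes, 0.439% were called lower without WT HFD 3, and 0.0111% to 0.0167% in the fits with 0 members, against 0.187% with all libraries. Defa32 was the only call left (1 member) without WT HFD 1, KO chow 3 or any 1 of the WT chow libraries. In those fits 0.0111% to 0.0447% of all genes were called lower. Smooth muscle genes moved with the same contrast. Their 10 markers summed to 96.3 to 122 CPM in KO HFD, against 37.6 to 74.3 CPM in the WT HFD libraries and 52.6 to 69.8 in the chow libraries. Synm rose by 1.23 and Flnc by 1.19 on the log2 scale (edgeR adjusted p = 0.038 and 0.031), and the other 8 did not pass. All 10 were higher in KO HFD, with a median of 1.17, and DESeq2 called 6. All 10 had an unadjusted p under 0.05 with edgeR, beside 13.0% of all genes. With the smooth muscle score as a covariate the defensin sum differed by -0.92 (adjusted p = 0.016) and 14 members were called lower, beside 4.76% of all genes called lower in that fit against 0.187% without the score. On HFD this score separates the genotypes completely (-0.78 to 0.12 in WT HFD, 0.43 to 0.71 in KO HFD). Genotype and this score therefore cannot be told apart in that fit. What part this RNA has in the differences was not tested further. Markers of other epithelial cells had medians closer to 0 than the 25 tested members (-0.56) on this contrast. These were -0.08 for 7 goblet genes (0 called with edgeR, 2 at an unadjusted p under 0.05 and 0 with DESeq2) and -0.20 for 8 enterocyte genes (1 called, Treh at -0.58). Stem and crypt base genes had a median of -0.29, with 1 of 7 called (Smoc2, -0.47). Lists of other Paneth cell genes, given below, were also closer to 0. Their medians were -0.02 (8 factors), -0.09 (7 niche and surface genes) and 0.08 (11 granule and function genes).

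**Figure D2:**
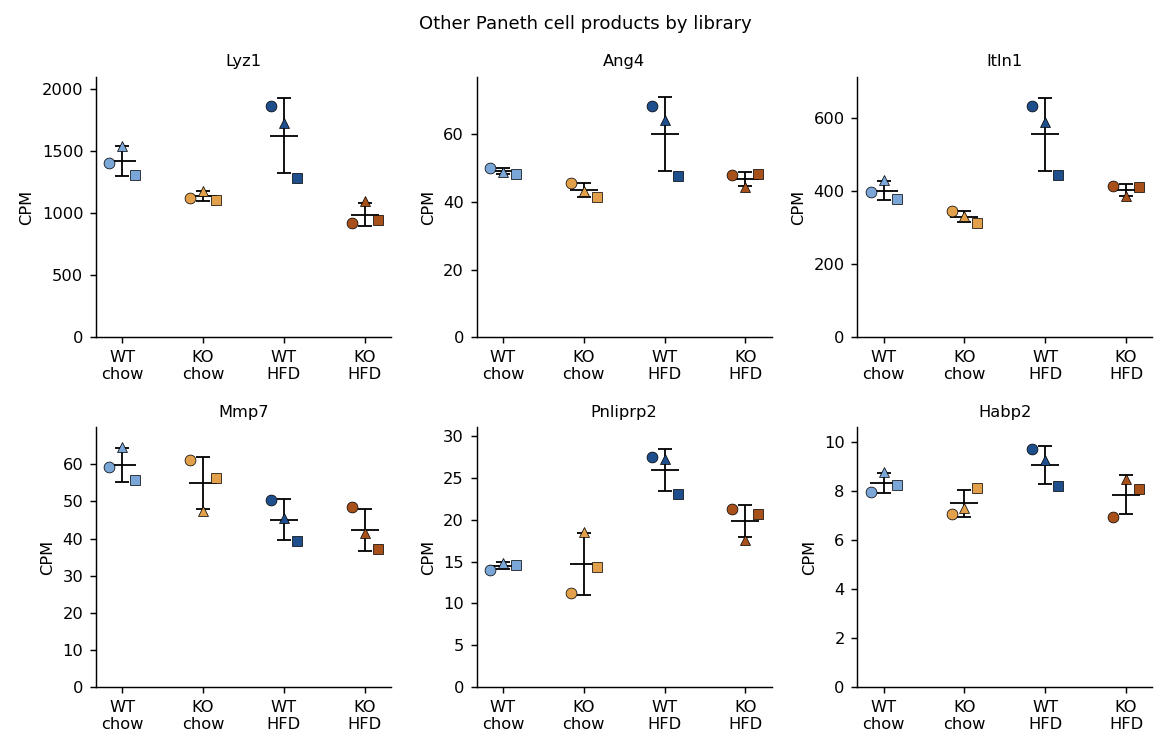
CPM per library (y axis, from 0) of the 6 products other than defensins in the 4 groups of 3 libraries (x axis), with symbols for replicates 1 to 3 and bars for mean and SD. Lyz1 shows KO HFD at 920 to 1092.9 CPM under every WT HFD library, Mmp7 runs from 55.6 to 64.5 CPM in WT chow and 39.3 to 50.4 in WT HFD, and Habp2 stays between 6.97 and 9.74 CPM.

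On chow, no member passed the test, although most pointed down in KO. The edgeR count was 0 of 25, beside 0.125% of all genes called in either direction and 0.0795% called higher, and 11 members had an unadjusted p under 0.05, each of them lower in KO, beside 13.0% of all genes under that p in either direction. The 11 hold Lyz1, Itln1, Defa29 and 8 defensins of the groups of near copies, which are not independent. DESeq2 also called 0. The defensin sum was 3158.3, 3601.1 and 2834.6 CPM in WT chow and 2894.4, 2831.9 and 2633.1 in KO chow. KO 1 overlapped the WT range (log2 fold change -0.20, SE 0.13, edgeR adjusted p = 0.54). Lyz1 had 1405.3, 1540.4 and 1302.1 CPM in WT chow and 1122.5, 1177.3 and 1107.7 in KO chow, and these libraries did not overlap (-0.32, SE 0.12, edgeR adjusted p = 0.31). The closest to a call was Defa34 at -0.57 (adjusted p = 0.22), which passed only without KO chow 1, at -0.77 (adjusted p = 0.019). Defa29, whose WT chow values of 79.3, 92.2 and 72.7 CPM lay above 58.1, 58.6 and 59.1 in KO chow, differed by -0.47 (adjusted p = 0.31). Of the 25, 16 had WT and KO libraries on chow without overlap and KO lower, beside 12.1% of all genes, and 1 (Defa33) had KO higher, beside 10% of all genes. Markers of intestinal segment varied among the KO chow libraries. Lct (proximal) was at 0.453, 102 and 57.6 CPM there and at 2.01 to 2.75 in WT chow. Fgf15 (distal ileum) was at 15.1, 109 and 69.3 CPM against 12.1 to 16.7. DESeq2 called both on chow and edgeR neither. What part this has in the differences was not tested.

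Averaged over both diets, the difference between genotypes reached the threshold for 9 members, all lower in KO, beside 0.846% of all genes tested that were called lower and 0.642% called higher. They were Lyz1, Itln1, Defa5, Defa21, Defa22, Defa24, Defa26, Defa30 and Defa32. Lyz1 fell by 0.52 (SE 0.09, edgeR adjusted p = 0.015) and Itln1 by 0.37 (SE 0.08, adjusted p = 0.034). The defensin sum fell by 0.43 (SE 0.09, adjusted p = 0.039). The groups of near copies gave much the same average, with -0.41 for the Defa20 group, -0.43 for the Defa24 group and -0.42 for the Defa37 group (adjusted p = 0.048, 0.042 and 0.049). Within the diets they differed more. In that order the groups were at -0.08, -0.29 and -0.37 on chow (edgeR adjusted p = 0.84, 0.39 and 0.29) and at -0.74, -0.58 and -0.48 on HFD. The like averages thus do not show a like difference on each diet. Defa29 was at -0.52 (adjusted p = 0.064), and summed with 4 genes that are 96.3% to 97.4% identical to it but carry other symbols it was at -0.47 (adjusted p = 0.054). Ang4 differed by -0.27 (adjusted p = 0.076), Habp2 by -0.18 (adjusted p = 0.22), Pnliprp2 by -0.18 (adjusted p = 0.34) and Mmp7 by -0.10 (adjusted p = 0.52). The calls were lost easily here too, among all genes as among the members. The edgeR count was 0 without WT chow 1 and 0 without KO chow 3, the in-between libraries. Of all genes, 0.0278% were called lower in each of these fits, against 0.846% with all libraries. The count of members was 2 to 5 without WT chow 2, WT chow 3, KO chow 2, WT HFD 1, WT HFD 2, KO HFD 1 or KO HFD 2. All genes called lower made up 0.122% to 0.441% there. The count was 8 without KO HFD 3 (1.08% of all genes called lower), 13 without KO chow 1 (4.1%) and 15 without WT HFD 3 (1.3%). The defensin sum itself passed in 3 of the 12 fits that left out 1 library, those without KO chow 1, WT HFD 3 or KO HFD 3. With both in-between libraries left out the defensin sum still differed by -0.42, with an adjusted p of 0.28.

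Whether the genotype difference depended on diet was tested directly by the interaction. No member passed (0 of 25 with edgeR, beside 0.00568% of all genes), and 4 had an unadjusted p under 0.05, beside 6.34% of all genes. These were Defa32 (-0.71, SE 0.17, adjusted p = 0.40), Defa20 (-0.78, SE 0.23, adjusted p = 0.59), Defa33 (-0.91, SE 0.29, adjusted p = 0.68) and Lyz1 (-0.40, SE 0.18, adjusted p = 0.77). Defa20, Defa32 and Defa33 are 99.5% to 99.8% identical and do not count separately. DESeq2 called 1, Defa32, and edgeR called 1, Defa33, only without KO HFD 3 (-1.27, adjusted p = 0.021). The Defa20 group gave -0.66 (SE 0.19, adjusted p = 0.59), the Defa24 group -0.29 (SE 0.19) and the Defa37 group -0.10 (SE 0.20). A larger fall on HFD than on chow is thus not established for any of them.

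**Figure D3:**
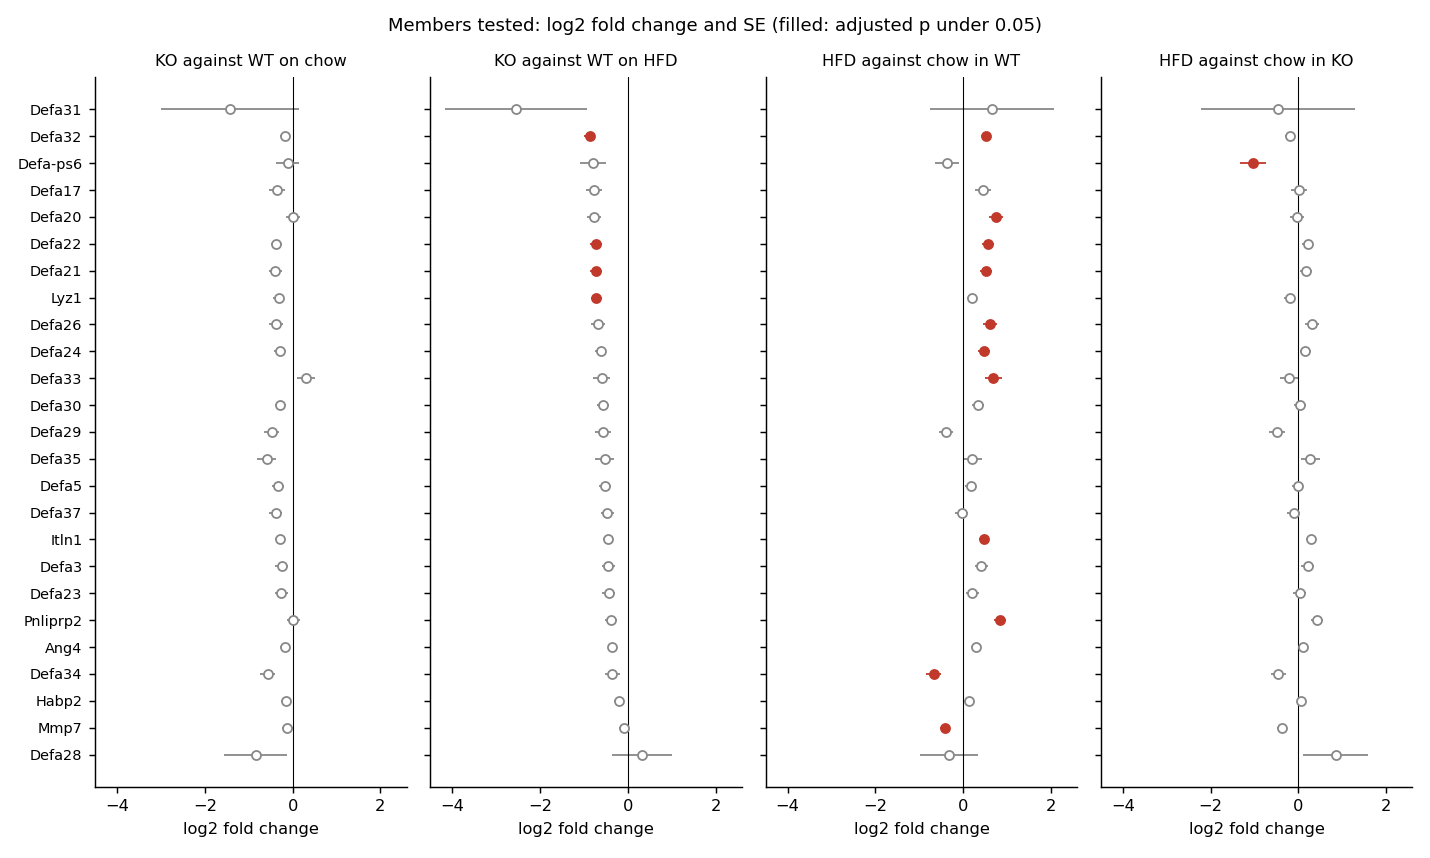
Log2 fold change (x axis) with its SE for the 25 tested members (rows, ordered by the change between genotypes on HFD) in the 4 pairwise comparisons. Filled red points passed adjusted p under 0.05, numbering 0, 4, 11 and 1 from left to right, and Defa28 and Defa31 have wide bars because their counts are low or scattered.

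With Ppara intact, part of the defensins, Itln1 and Pnliprp2 were higher on the high-fat diet than on chow, and Mmp7 was lower. In WT, 9 of the 25 tested members rose and 2 fell with HFD, beside 6.8% of all genes that rose and 6.57% that fell. The chow and HFD libraries did not overlap for 7 members with HFD higher (19.3% of all genes) and 2 with HFD lower (18.6%). Those that rose were Defa20, Defa21, Defa22, Defa24, Defa26, Defa32, Defa33, Itln1 and Pnliprp2. Pnliprp2 went from 14, 14.8 and 14.6 CPM on chow to 27.4, 27.2 and 23.0 on HFD, a 1.79-fold rise with no overlap (log2 fold change 0.84, SE 0.14, edgeR adjusted p = 0.003). It was also called in each of the 12 fits that left out 1 library. Itln1 rose 1.38-fold from 397, 429 and 377 CPM to 633, 588 and 443 (0.47, SE 0.11, adjusted p = 0.014). Ang4 (0.29, adjusted p = 0.077), Lyz1 (0.20, adjusted p = 0.32) and Habp2 (0.13, adjusted p = 0.48) did not pass.

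The groups of near copies gave different values in this comparison. The Defa20 group went from 1537.5, 1686.8 and 1380.4 CPM in WT chow to 2628.7, 2400.1 and 2068.5 in WT HFD. Its HFD libraries all lay above its chow libraries, and it rose 1.54-fold (0.62, SE 0.14, edgeR adjusted p = 0.0096). The Defa24 group was at 1153.9, 1366.3 and 1040.3 CPM on chow, and WT HFD 3 lay within that range (0.40, SE 0.14, adjusted p = 0.063). The Defa37 group showed no detectable change, from 387, 456 and 341 CPM to 461, 411 and 296 (-0.02, SE 0.14, adjusted p = 0.95). Within it Defa34, which shares its coding end with the rest of the group, fell from 30.9, 36.8 and 28.9 CPM to 23.1, 19.7 and 17.6 (-0.67, SE 0.17, adjusted p = 0.021). Defa29 was at -0.39 (adjusted p = 0.16). The sum of all 22 defensins rose by 0.46 (SE 0.13, adjusted p = 0.033), and with the 6 near copies outside the symbol rule by 0.40 (adjusted p = 0.055). The rise of the sum no longer passed without WT chow 1, WT chow 3, KO chow 3, WT HFD 1 or WT HFD 2, where it was 0.33 to 0.45, while that of the Defa20 group passed in 11 of 12 such fits.

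Mmp7, whose protease processes the defensin precursors, moved the other way. It stood at 59.1, 64.5 and 55.6 CPM in WT chow and at 50.4, 45.4 and 39.3 in WT HFD. The libraries did not overlap, and Mmp7 fell 1.33-fold (log2 fold change -0.41, SE 0.12, edgeR adjusted p = 0.034), a call made in 7 of the 12 fits without 1 library. The count of called members in WT was 2 without WT chow 1 or without WT chow 3 (4.98% of all genes called in each fit). It was 3 without WT HFD 2 (7.24%), and 7 without WT chow 2 (6.38%) or without WT HFD 1 (14.1%). Without both in-between chow libraries it was 1 (Pnliprp2), beside 2.55% of all genes called, and the defensin sum was at 0.44 (adjusted p = 0.17). Of 5 tested markers of the proximal small intestine, 1 passed in this contrast. It was Lct, the lactase gene, at 2.24, 2.75 and 2.01 CPM in WT chow and at 256, 160 and 76.2 in WT HFD (log2 fold change 6.15, edgeR adjusted p = 0.028). The other 4 did not pass and lay on both sides of 0, with Gata4 at 1.24, Cybrd1 at 0.42, Slc40a1 at -0.63 and Onecut2 at -0.66. Of 5 distal ileum markers 1 passed, Fgf15, which was also higher on HFD (2.79, adjusted p = 0.024). With the score of the proximal markers as a covariate, 0 members were called with edgeR (6 at an unadjusted p under 0.05), beside 0.443% of all genes called, and the defensin sum was at 0.40 (adjusted p = 0.43). In WT this score separates the diets completely (-0.80 to -0.66 on chow, 0 to 0.67 on HFD), so the diet and this score cannot be told apart.

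In KO, no rise of the defensin sum with diet was detected. The sum was 2894.4, 2831.9 and 2633.1 CPM in KO chow and 2724.6, 2500.1 and 3146.8 in KO HFD, a log2 difference of 0 (SE 0.13, edgeR adjusted p = 1). Only the pseudogene Defa-ps6 was called with edgeR (1 of 25, beside 4.76% of all genes that fell, 3.44% that rose and 8.2% in either direction), from 1.23, 0.790 and 0.996 CPM to 0.556, 0.563 and 0.336 (-1.04, SE 0.29, adjusted p = 0.04). It has few counts, and the call held in 3 of the 12 fits that left out 1 library. Without KO chow 2, 5 of 27 tested members were called (1 higher and 4 lower), beside 5.66% of all genes called higher and 8.56% called lower. Mmp7 went from 61.2, 47.3 and 56.2 CPM to 48.4, 41.4 and 37.3 (-0.37, SE 0.12, adjusted p = 0.066), close in size to WT. Pnliprp2 went from 11.2, 18.5 and 14.4 CPM to 21.2, 17.6 and 20.7, with KO chow 2 inside the HFD range (0.43, SE 0.14, adjusted p = 0.082). Lyz1 was at -0.20 (adjusted p = 0.33) and Itln1 at 0.29 (adjusted p = 0.12). The chow and HFD libraries did not overlap for 7 members with HFD higher (12.7% of all genes) and 3 with HFD lower (13.1%). The 7 were Itln1, Defa3, Defa21, Defa22, Defa24, Defa26 and Defa35, and none of them passed the test. The score of the proximal markers ran from -0.94 to 0.43 in KO chow and from -0.12 to 0.79 in KO HFD.

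Ratios taken within a library do not depend on how libraries were scaled, and 5 of them were computed after the values had been seen. Diet was permuted within genotype and genotype within diet, 10 exact two-sided permutation tests of 400 arrangements each, for which 0.005 is the smallest p. After adjustment over the 10 tests a single result at that p reaches 0.05 at best, so a lone ratio that separates the groups fully could not pass. The Defa24 group was 2.98, 3 and 3.05 times the Defa37 group in WT chow and 4.06, 3.94 and 4.1 times in WT HFD. In KO the ratios were 2.91, 3.37 and 3.34 on chow and 3.76, 3.45 and 4.08 on HFD, so in both genotypes every HFD library lay above every chow library. The ratio was 1.25-fold higher on HFD (exact permutation p = 0.005, adjusted p = 0.05, n = 6 against 6), the smallest p these arrangements give. Without both in-between chow libraries the difference was 0.34 on the log2 scale, against 0.33 with them.

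Mmp7 per 1000 CPM of defensin sum was 18.7, 17.9 and 19.6 in WT chow, 21.1, 16.7 and 21.3 in KO chow, 10, 10.1 and 10.8 in WT HFD and 17.8, 16.6 and 11.9 in KO HFD. In WT the 2 diets were far apart, while in KO they overlapped. The ratio was 1.53-fold lower on HFD within genotypes (exact permutation p = 0.01, adjusted p = 0.05). It was 1.24-fold higher in KO within diets (exact permutation p = 0.045, adjusted p = 0.09). Lyz1 relative to the defensin sum was 0.428 to 0.459 in WT chow and 0.354 to 0.383 in WT HFD, with KO chow at 0.388 to 0.421 and KO HFD spread from 0.3 to 0.437. It was 1.18-fold lower on HFD (exact permutation p = 0.025, adjusted p = 0.083) and did not differ detectably between genotypes (exact permutation p = 0.31). The ratio of the Defa20 to the Defa37 group was 3.97, 3.7 and 4.04 in WT chow and 5.7, 5.83 and 6.98 in WT HFD, without overlap. In KO it was 4.67, 4.96 and 4.65 on chow and 4.68, 4.16 and 6.39 on HFD, which overlapped. Over both genotypes it was 1.29-fold higher on HFD (exact permutation p = 0.04, adjusted p = 0.09). Between genotypes this ratio lay higher in KO on chow, without overlap, while on HFD the mean was 5.07 in KO and 6.17 in WT. The ratio of the Defa20 to the Defa24 group likewise was 1.23 to 1.33 in WT chow and 1.39 to 1.6 in KO chow, and on HFD 1.4 to 1.7 in WT and 1.2 to 1.57 in KO. Averaged over diets, these opposite shifts left log2 differences of -0.01 and 0 (exact permutation p = 0.97 and 1), so the average does not describe either diet. Whether the shift differs between diets was not tested.

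**Figure D4:**
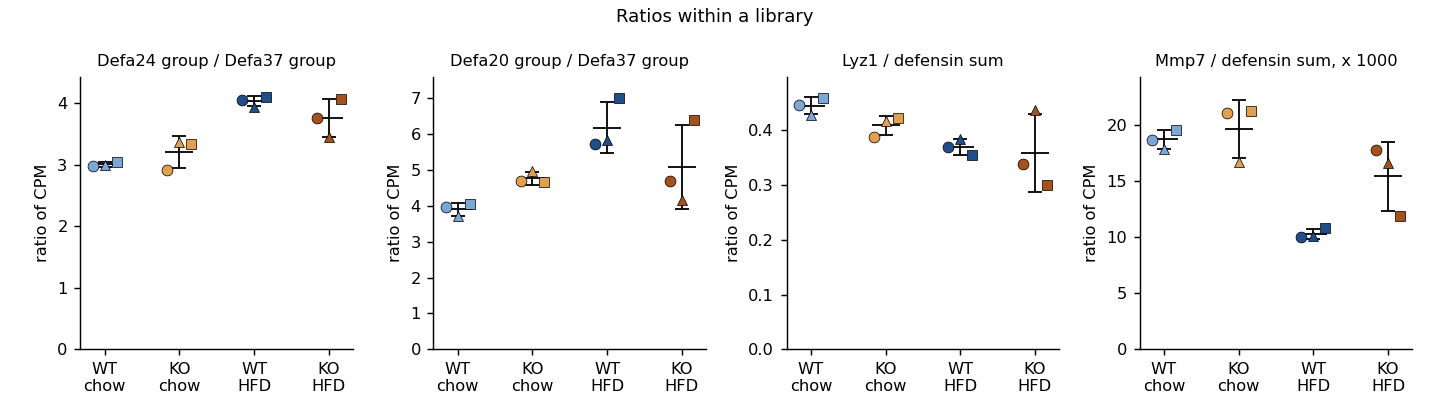
Ratio of CPM values within each library (y axis, from 0) in the 4 groups of 3 libraries (x axis), with symbols for replicates 1 to 3 and bars for mean and SD. The Defa24 to Defa37 ratio lies at 2.98 to 3.05 in WT chow and 3.94 to 4.1 in WT HFD, and the Mmp7 to defensin ratio at 17.9 to 19.6 and 10 to 10.8 per 1000.

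Other genes that Paneth cells use were taken from lists. Of 8 transcription and signalling factors of the lineage (Sox9, Atoh1, Gfi1, Spdef, Xbp1, Tcf7l2, Fzd5 and Bhlha15), none passed the edgeR test between genotypes on either diet or averaged over diets (2, 1 and 1 at an unadjusted p under 0.05 on chow, on HFD and averaged, and 0 with DESeq2; median 0.07 on chow and -0.02 on HFD). Atoh1, which starts the secretory lineage, was at 25.5 to 26.6 CPM in WT HFD and 24 to 26.5 in KO HFD. With HFD, Spdef, a factor of Paneth and goblet maturation, fell by 0.30 in WT and by 0.50 in KO (edgeR adjusted p = 0.02 and 0.0025). Bhlha15, which supports secretory cell structure, rose in WT by 0.40 (adjusted p = 0.045). Of 7 niche signals and surface proteins, none passed between genotypes (2 at an unadjusted p under 0.05 on each diet and averaged, and 0 with DESeq2). Their median between genotypes was 0.01 on chow and -0.09 on HFD. In WT on HFD the growth factor gene Tgfa rose by 0.47 (adjusted p = 0.0025) and Cd24a by 0.28 (adjusted p = 0.046), while the receptor gene Ephb3, which positions cells in the crypt, fell by 0.46 (adjusted p = 0.019).

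The 11 other granule and function genes lay on both sides of 0 between genotypes. Their median was -0.07 on chow (-0.42 to 0.73) and 0.08 on HFD (-0.83 to 0.6). Clps was the one called between genotypes. It encodes colipase, a lipase cofactor that mouse Paneth cells also make. Clps was at 8.46, 8.66 and 7.57 CPM in WT chow, 6.69, 6.69 and 6.28 in KO chow, 15, 12.9 and 10.2 in WT HFD and 6.45, 7.2 and 7.8 in KO HFD. It fell in KO on HFD by 0.83 (SE 0.13, edgeR adjusted p = 0.027) and rose with HFD in WT by 0.63 (SE 0.13, adjusted p = 0.0069). Clps and Pnliprp2 are also made by pancreatic acinar cells, and of 10 acinar markers 1 passed the filter (Cela1). The 10 summed to 1.5 to 3.33 CPM, with Pnlip at 0 in all 12 libraries and Amy2a5 at no more than 0.0834 CPM. Reg3b and Reg3g, antibacterial lectin genes that enterocytes express as well, were lower on HFD, with log2 fold changes of -2.04 and -2.10 in WT and -1.46 and -1.47 in KO (edgeR adjusted p = 0.0018, 0.0035, 0.012 and 0.021, in that order). Reg3a fell in KO by 0.94 (adjusted p = 0.035). In WT, Reg3a was at 60.8 to 82.0 CPM on chow and 42.7 to 48.4 on HFD, a fall called by DESeq2 and not by edgeR. Mptx1, a pentraxin gene, rose by 2.69 in WT and 2.38 in KO from levels under 0.6 CPM in the chow libraries (adjusted p = 0.0046 and 0.0094). Its neighbour Mptx2 was at 30.9 to 66.0 CPM and did not pass with edgeR, while DESeq2 called it lower on HFD in WT.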

How the data were processed

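The authors' table gives each gene's expected count, an RSEM estimate that need not be whole. Trimmomatic, STAR, Picard, RSEM and mm10 are named, without versions, per the submitters' processing notes. Which annotation and strand setting were used is not given in the sources used here. Gene IDs were matched to symbols through GENCODE vM21 (47224 of 47643). After rounding, edgeR 4.0.16 ran its robust quasi-likelihood test (TMM factors, filterByExpr) in 1 fit of 4 group means, with Benjamini-Hochberg adjustment over all 17602 genes tested and a threshold of 0.05. SE was derived from F. Sums were formed before rounding and replaced their genes in otherwise equal tables. 1 CPM stood for 32.7 to 52.8 counts. No protein table was given, so the sum by symbol is the main defensin sum, and groups by transcript identity (Biopython 1.88) were added after seeing the files. Scripts were tested on simulated data.

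Named were the 6 other products, the group sums, the 8 defensins with the highest mean CPM, every defensin called in any comparison, up to 6 called genes a list, and Ppara. The members and lists were chosen with earlier results of these data known. Alternatives were DESeq2 1.42.0 (Wald test, or its size factors in edgeR), dropping the filter or asking for 50 counts in 3 libraries, the compared groups alone, a block for replicate number, 2 covariates (mean centred log2 of CPM plus 0.5 over a list), and each library left out.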

Additional observations from a re-analysis of the deposited data

How the results depend on the processing

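What limits the calls, depth or the 3 libraries a group, was not tested. For each call of a named member or group sum (30 calls), no setting reversed the direction, but 174 of 360 fits without 1 library and 69 of 257 fits under other settings no longer passed. The cause was not tested.

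The number of members called between genotypes on HFD (4) was 12 with the DESeq2 Wald test, 7 without a filter and 14 with the smooth muscle score. It was 0 without both in-between chow libraries and 0 with only the groups compared. The last fit has fewer samples and leaves the closely alike WT chow libraries out of its estimate of spread. Which of these matters was not tested. The share of all genes called lower was 1.01% with DESeq2, 0.238% without a filter and 4.76% with the smooth muscle score, against 0.187%. That share was 0.00558% without both in-between libraries and 0.0177% with only the groups compared. Without single libraries the number of members called ranged from 0 to 15, beside 0.0111% to 0.733% of all genes called lower. In the interaction it was 1 with DESeq2 and 0 to 1 without single libraries, and on chow 0 to 1. Averaged over diets (9) it was 18 with DESeq2, 18 with the smooth muscle score, 0 without both in-between libraries and 0 to 15 without single libraries. All genes called lower made up 3.01% with DESeq2 and 8.08% with the smooth muscle score, against 0.846%. They made up 0.0112% without both in-between libraries and 0.0278% to 4.1% without single libraries. For HFD in WT (11) the count of members was 0 with the proximal score, 1 without both in-between libraries and 2 to 12 without single libraries. All genes called made up 0.443% with the proximal score and 2.55% without both in-between libraries, against 13.4%. For HFD in KO (1) the count of members was 5 with DESeq2, 2 without a filter, 0 with 50 counts in 3 libraries, 2 with the smooth muscle score, 0 with the proximal score, 0 without both in-between libraries and 0 to 5 without single libraries. All genes called made up 12.2% with DESeq2, 4.85% without a filter and 14.8% with the smooth muscle score, against 8.2%. They made up 11.8% with 50 counts in 3 libraries, 3.52% with the proximal score and 1.03% without both in-between libraries. Without KO chow 2, the fit that gave 5, they made up 14.2%.

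The defensin sum between genotypes on HFD (-0.65, not passing) passed with DESeq2 (-0.65), without a filter (-0.67), with the smooth muscle score (-0.92) and as the Defa20 group, the group with the highest CPM at 90% identity (-0.74). Without single libraries it ranged from -0.77 to -0.54. In WT with HFD it no longer passed with the proximal score (0.40), without both in-between libraries (0.44) or with the 6 near copies (0.40), and ranged from 0.33 to 0.58. Averaged over diets it no longer passed with the proximal score (-0.44) or without both in-between libraries (-0.42), and ranged from -0.49 to -0.38. In KO with HFD the sum (0.00) changed sign around 0, at 0.00 with DESeq2 size factors, the Wald test and only the groups compared, -0.02 without a filter, -0.20 with the smooth muscle score, -0.02 with the proximal score, -0.06 without both in-between libraries, -0.01 with the near copies, -0.03 as the Defa20 group and -0.11 to 0.08 without single libraries (-0.02 without WT chow 1, -0.06 without KO chow 3). Without single libraries, the adjusted p of the sum ranged from 0.015 to 0.25 between genotypes on HFD, 0.018 to 0.15 for HFD in WT and 0.016 to 0.12 averaged over diets, and under the other settings from 0.00013 to 0.29, 0.0048 to 0.43 and 0.00036 to 0.28. Grouping at 80% protein identity was not run, because no protein table was given.

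The labels state no pairing of libraries by replicate number. Deviations from the group mean correlated at -0.0714 to 0.121 over 18 pairs of same-numbered libraries, and at -0.175 to 0.151 over 36 pairs with different numbers. These values cannot settle whether libraries were paired. The fit with the replicate block gave 3 members called lower for HFD in KO, beside 4.69% of all genes called lower.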
